A study of Mus musculus with 6 samples.

Results

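Expression of the genes that write, maintain and remove DNA methylation was followed in mouse B lymphomas carrying a hairpin against Ezh2 and in premalignant B cells. The 8 listed genes were Tet1, Tet2, Tet3, Dnmt1, Dnmt3a, Dnmt3b, Uhrf1 and Tdg, taken by their symbol in the platform annotation. Of these, 7 had a probe set of their own among the 19938 genes tested, on 10 probe sets in all, and the probe set with the highest mean over the 6 arrays stood for each gene. Tdg was represented only by 4 probe sets that the annotation shares with Tdg-ps2, so its signal could not be assigned to either gene and no value is given.

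The arrays were Affymetrix Mouse Gene 1.0 ST, hybridised with total RNA, in 3 groups of 2. The first group held lymphomas with the hairpin shEzh2.781 and the second held lymphomas with shEzh2.556. The third, the control group, held sorted splenic B cells from premalignant animals. All 3 groups carried the Em-Myc transgene, which places Myc under the enhancer of the immunoglobulin heavy chain gene and so raises it in B cells. No lymphoma with a control hairpin or with none was analysed here. Lymphoma cells had been enriched with CD43 beads to at least 95% B220-positive, GFP-positive cells. The characteristics name the controls normal B cells, whereas their description and source name them premalignant, which is the name used here. The labels give no age, nor do they state whether the 2 lymphoma arrays per hairpin are different tumours or mice. The p-values therefore cover only the spread between these arrays, which may be technical.

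Ezh2, the catalytic subunit of the polycomb repressive complex that methylates histone H3, is the target of both hairpins. Its log2 signal was 10.92 and 11.07 in shEzh2.781 lymphomas and 11.20 and 11.30 in shEzh2.556 lymphomas, against 12.64 and 12.70 in premalignant cells, a log2 difference of -1.55 for the lymphomas together (SE 0.10, limma adjusted p = 1.31e-06). B lineage markers such as Cd79a and Cd79b, summed on a linear scale, reached 24030 to 25980 in shEzh2.781 lymphomas and 24353 to 25660 in shEzh2.556 lymphomas, against 27706 to 28037 in premalignant cells. Of 7 measured, 3 were lower in lymphomas (Ebf1, Pax5 and Blnk), and none was called without premalignant replicate 2. Markers of other cells moved as well. All 10 neutrophil markers were lower in lymphomas (2 with the lymphomas treated as 1 group), with sums of 3573 to 5938 in shEzh2.781 and 955 to 1599 in shEzh2.556 lymphomas, against 9539 to 11154 in premalignant cells. All 4 measured eosinophil markers were lower, with sums of 239 to 242 in shEzh2.781 and 216 to 239 in shEzh2.556 lymphomas, against 1479 to 1516 in premalignant cells. Of 12 pro-B and pre-B cell markers, 10 were lower, with sums of 10153 to 12226 in shEzh2.781 and 6638 to 7057 in shEzh2.556 lymphomas, against 15836 to 18767 in premalignant cells. Megakaryocyte markers were lower for 3 of 4 measured, with sums of 312 to 330 in shEzh2.781 and 386 to 402 in shEzh2.556 lymphomas, against 679 to 1374 in premalignant cells. Dendritic cell markers were lower for 3 of 6 and higher for 1, with sums of 716 to 766 in shEzh2.781 and 743 to 795 in shEzh2.556 lymphomas, against 1073 to 1565 in premalignant cells. Lower in lymphomas were also 3 of 6 natural killer cell, 3 of 5 erythroid and 2 of 7 T cell markers, and 2 of 7 macrophage markers were higher. The macrophage sum was nonetheless lower, at 2102 to 2667 in shEzh2.781 and 1855 to 2851 in shEzh2.556 lymphomas, against 2962 to 3383 in premalignant cells. By hairpin, the macrophage markers Lyz2 with shEzh2.556 (-1.74, limma adjusted p = 0.0257) and Cd68 with shEzh2.781 (-0.65, adjusted p = 0.0173) were lower. Without premalignant replicate 1 the natural killer count was 1 and no dendritic or macrophage marker was higher, and without premalignant replicate 2 1 dendritic marker was lower and 1 macrophage marker higher. Without shEzh2.781 replicate 2, 5 erythroid markers were lower and 1 macrophage marker was higher, and without shEzh2.556 replicate 1 no macrophage marker was higher. With the lymphomas treated as 1 group, 0 erythroid markers were lower and 0 macrophage or dendritic markers higher. The part of these cells in the results below was not tested, and in such bulk samples fewer cells of a type and less RNA per cell cannot be told apart.

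DNA methylation in mammals is placed on cytosines next to guanines. DNMT3A and DNMT3B set it on unmethylated DNA, while DNMT1, brought to newly copied DNA by UHRF1, restores it on the daughter strand. TET1, TET2 and TET3 are dioxygenases that oxidise methylcytosine, and TDG, a glycosylase, excises the most oxidised forms so that base excision repair can put back an unmodified cytosine. In mice, Tet2 and Tet3 are needed for early B-cell development, and loss of Tet1 is known to predispose to B-cell lymphoma.

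In lymphomas as a whole, given as the mean of both hairpin groups against premalignant cells, 4 of the 7 measured genes were lower (Tet1, Tet3, Dnmt3a and Uhrf1) and 0 were higher by limma. At an unadjusted p under 0.05, 0 were higher and 5 lower. No share of all genes is given at that looser threshold, here or below, so such counts have no background to be read against. Over all genes 9.61% were called lower and 5.6% higher, at a Benjamini-Hochberg adjusted p under 0.05. With quantile normalization these shares were 8.25% and 7.98%, and with arrays centred on their medians 7.67% and 8.44%, while the same 4 of the 7 were called lower under both. These shares include genes of low signal, while all 7 lay above the median signal. When only the 9969 genes above it were tested, 2678 were called in either direction and 5 of the 7. Over all 19938 genes 3033 were called. The median difference of the 7 was -0.48 on the log2 scale, against 0.03 over all genes. All 4 lymphoma arrays lay below both premalignant arrays for 5 of the 7, the 4 called genes and Dnmt1, which was true of 16.1% of all genes. The 3 comparisons with premalignant cells share the same 2 control arrays, so their values are given side by side and are not separate evidence.

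**Figure D1:**
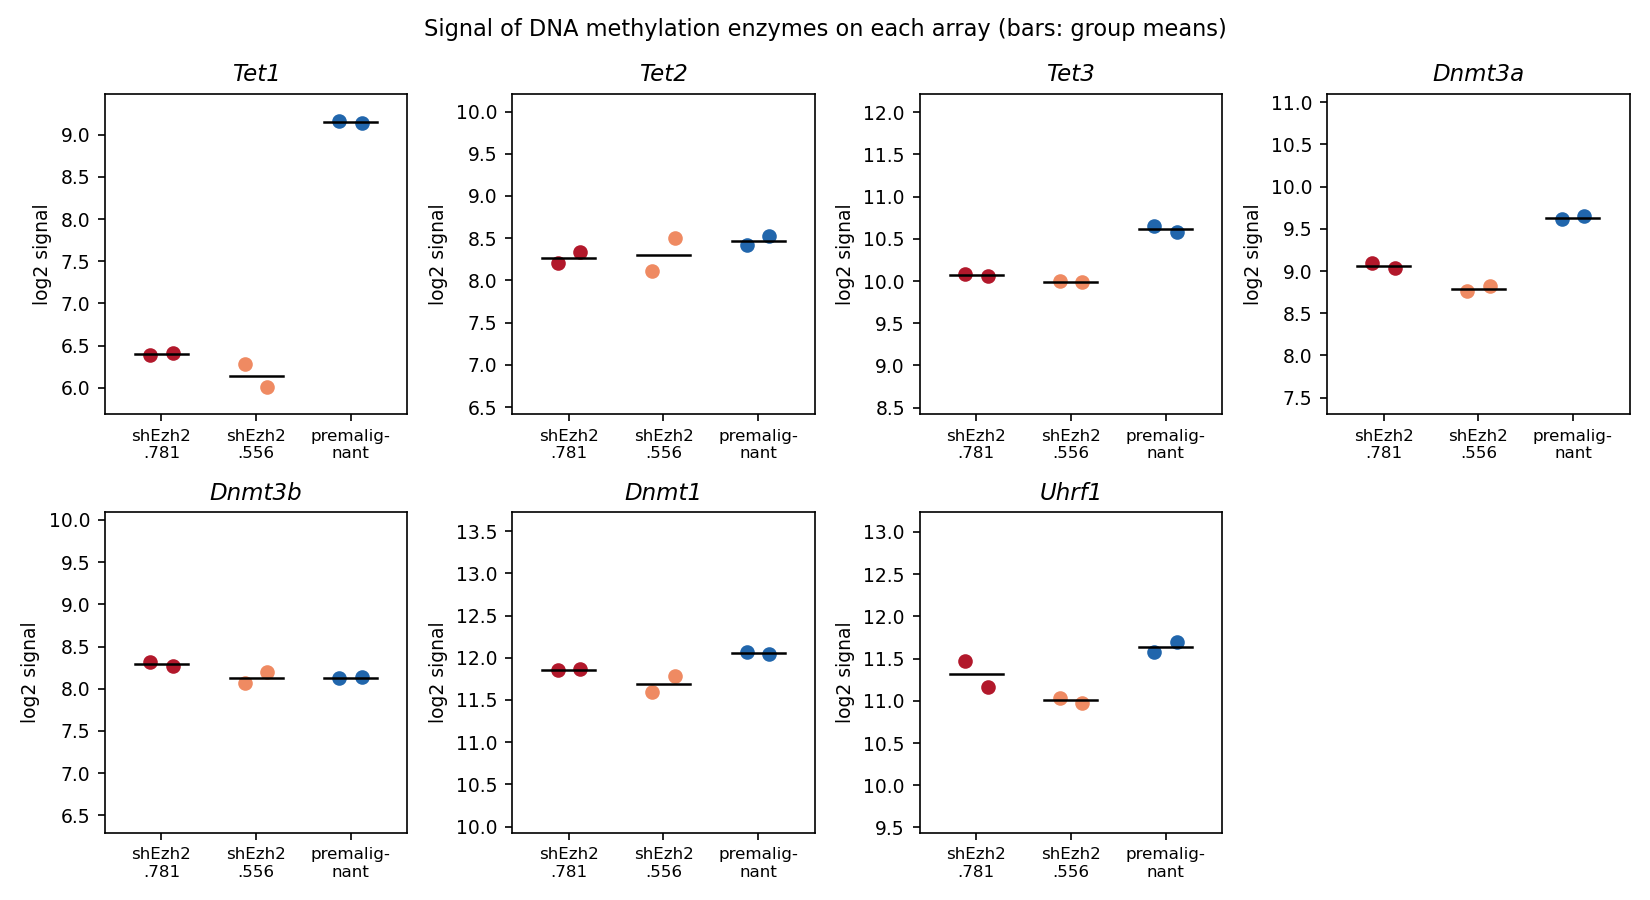
Log2 signal of each measured gene on each array, 1 panel per gene, with the groups along the x axis, points for arrays and bars for group means. Every y axis spans the same range, so distances can be read across panels. Tet1 shows the widest gap, with lymphoma arrays at 6.01 to 6.41 and premalignant arrays at 9.14 and 9.16, while Tet2 and Dnmt3b overlap.

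Tet1 had log2 signals of 6.38 and 6.41 in shEzh2.781 lymphomas and 6.28 and 6.01 in shEzh2.556 lymphomas, against 9.16 and 9.14 in premalignant cells. Every lymphoma array lay far below the premalignant pair, which differed from each other by 0.016. The lymphoma values lay under the medians of all probe sets on the arrays (6.75 to 6.91), and no detection calls were used here, so whether they exceed background is not known and the size of the difference may be limited by it. The log2 difference was -2.88 (SE 0.10, 95% interval -3.11 to -2.65, adjusted p = 1.18e-08 by limma), or 7.36-fold lower as measured. By hairpin the difference was -2.76 in shEzh2.781 lymphomas (adjusted p = 8.85e-08) and -3.01 in shEzh2.556 lymphomas (adjusted p = 2.70e-08).

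The other 2 Tet1 probe sets gave log2 differences of -2.47 and -2.36 (limma adjusted p = 1.29e-07 and 7.12e-08 over all 21789 probe sets with a single symbol). Their lymphoma arrays ranged from 5.61 to 5.88 on one and from 6.15 to 6.31 on the other, against 8.17 and 8.23, and 8.59 and 8.64, in premalignant cells. All 3 probe sets thus separated lymphomas from premalignant cells on every array.

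**Figure D2:**
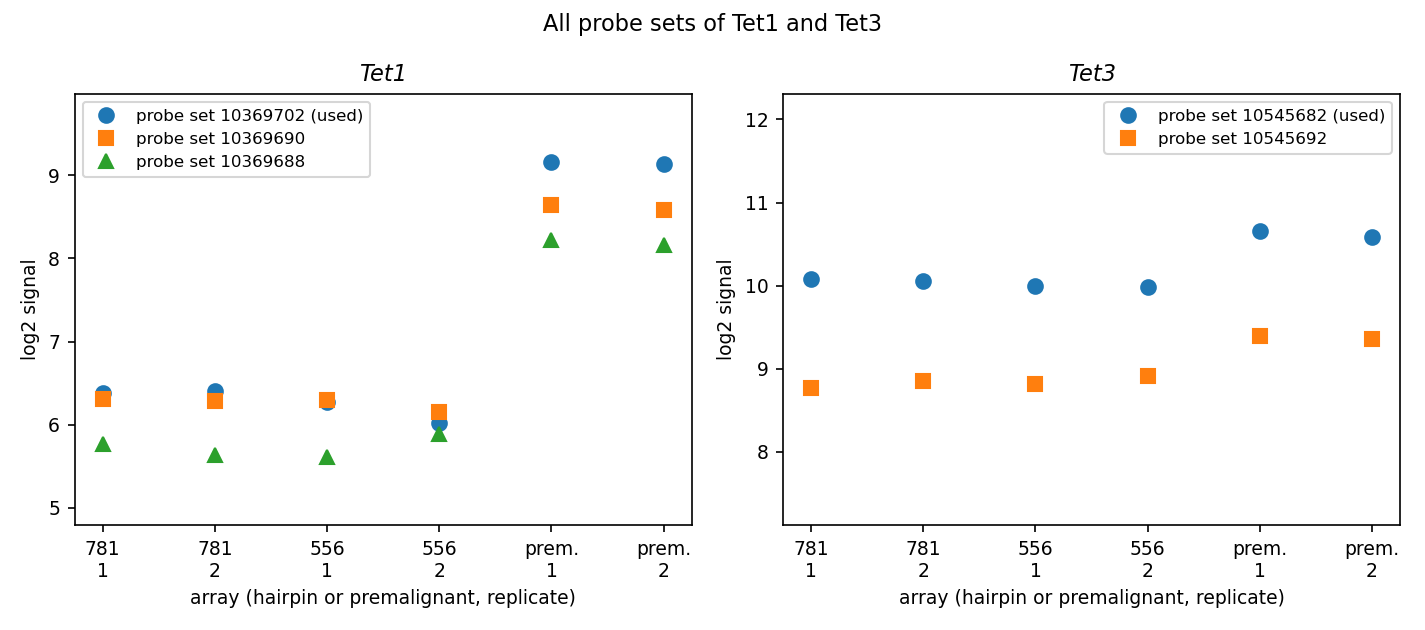
Log2 signal on each array (x axis, hairpin or premalignant and replicate) of all 3 probe sets of Tet1, left, and both probe sets of Tet3, right, 1 symbol per probe set. Lymphoma arrays lie below premalignant arrays on each probe set, with differences of -2.36 to -2.88 for Tet1 and of -0.54 and -0.59 for Tet3.

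The start region of Tet1 is shown because Tet1 had the largest difference of the 7 genes. It lies at chr10:62887275-62887574 on the minus strand, a 300-base window at a transcript start (RefSeq, GRCm38.p6) that also holds the outermost annotated base of the gene, 62887469, and capitals mark the CG dinucleotides, the sites that DNMT enzymes methylate and TET enzymes act on.
Tet1: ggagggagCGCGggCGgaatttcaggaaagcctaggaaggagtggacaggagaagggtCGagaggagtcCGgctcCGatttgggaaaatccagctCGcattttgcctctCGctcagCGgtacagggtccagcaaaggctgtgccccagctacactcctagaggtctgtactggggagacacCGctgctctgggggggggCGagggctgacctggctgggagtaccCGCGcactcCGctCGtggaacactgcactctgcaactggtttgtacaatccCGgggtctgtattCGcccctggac
It holds 17 CG dinucleotides, against a median of 7 and an upper quartile of 20 over the 32851 such windows of the mouse genes. Methylation itself was not measured in these samples.

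The genes whose profile over the 6 arrays lay closest to that of Tet1, after each was centred on its own mean, were Tes (root mean square difference 0.17 log2), Cacna1e and Epx (both 0.19). Their log2 differences in lymphomas were -2.85, -2.78 and -2.71. On the lymphoma arrays Tes (6.25 to 6.40) and Epx (5.34 to 5.51) lay under the array medians of 6.75 to 6.91, as Tet1 did. Cacna1e lay at 6.90 to 7.10. The sizes of the differences of Tes and Epx, and their closeness to Tet1, may therefore be limited by background. Tes encodes a focal adhesion protein, Cacna1e a voltage-gated calcium channel subunit, and Epx the eosinophil peroxidase, one of the eosinophil markers above. Relative to the premalignant mean, the log2 of the eosinophil marker sum lay at -2.63 to -2.80 on the lymphoma arrays, and that of the B lineage sum at -0.10 to -0.21. Single markers of other cells had differences of similar size with both hairpins. Among pro-B and pre-B markers these were Lef1 (-3.09), Igll1 (-3.79) and Dntt (-2.64), among dendritic markers Siglech (-2.74, limma adjusted p = 3.68e-06) and among megakaryocyte markers Ppbp (-3.23, adjusted p = 1.08e-05), all chosen after their values were seen. Other pro-B and pre-B markers differed less, with Vpreb3 at -0.13 (adjusted p = 0.482) and Il7r at 0.20 with shEzh2.781 (adjusted p = 0.672) and -1.69 with shEzh2.556 (adjusted p = 0.000149). Means of the eosinophil markers Ear6 (5.57 and 5.57) and Prg2 (5.38 and 5.65) with shEzh2.781 and shEzh2.556 also lay under the array medians. So did those of Dntt (5.04 and 5.17), Siglech (5.93 and 6.20) and Ppbp (5.29 and 5.92). The eosinophil marker Prg3 lay at 6.78 and 6.39, with a smaller log2 difference of -1.28 (limma adjusted p = 7.40e-06). Lef1 (7.75 and 7.86) and Igll1 (7.76 and 7.70) lay above the medians. The part of any of these cell types in the Tet1 difference was not tested.

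**Figure D3:**
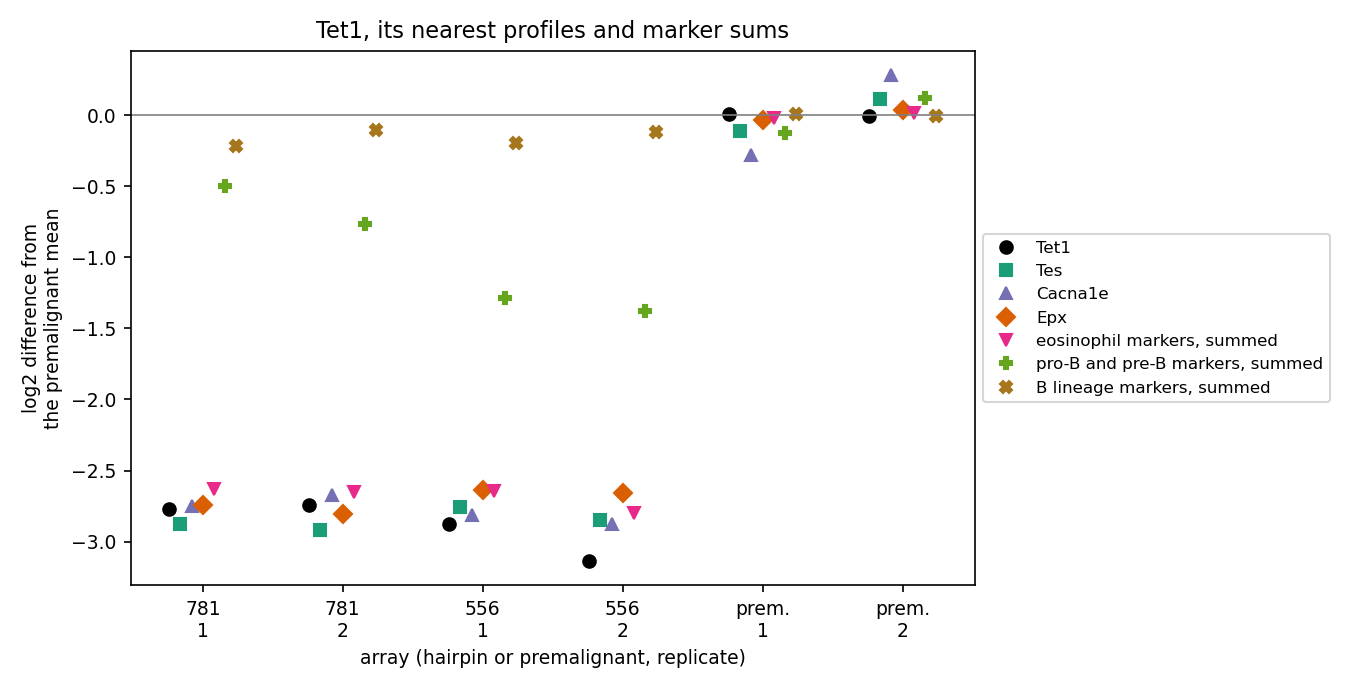
Log2 difference from the premalignant mean (y axis) on each array (x axis) of Tet1, its 3 nearest profiles and 3 summed marker lists. Tes, Cacna1e and Epx were chosen for closeness to Tet1 on these same arrays, and Epx is part of the eosinophil sum. On the 4 lymphoma arrays Tet1, Tes, Cacna1e, Epx and the eosinophil sum lie together near the Tet1 difference of -2.88 and the B lineage sum lies close to 0. The pro-B and pre-B sum lies between them but weighs bright genes most, and single markers in it such as Lef1 (-3.09) and Dntt (-2.64) differed about as much as Tet1. In lymphomas Tet1, Tes, Epx and Dntt lay under the array medians, so the sizes of their differences may be limited by background.

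Tet3 had log2 signals of 10.08 and 10.05 in shEzh2.781 lymphomas and 10.00 and 9.99 in shEzh2.556 lymphomas, against 10.66 and 10.58 in premalignant cells. The 4 lymphoma arrays lay close together and all below the premalignant pair. The log2 difference was -0.59 (SE 0.09, adjusted p = 0.00111 by limma), and the second probe set gave -0.54 (adjusted p = 0.00261). By hairpin it was -0.55 in shEzh2.781 lymphomas (adjusted p = 0.00595) and -0.63 in shEzh2.556 lymphomas (adjusted p = 0.00184). The nearest profiles were those of Anxa3 and Abca13 (root mean square differences 0.035 and 0.036) and Gpatch2l (0.039).

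Tet2, a gene often mutated in human blood cancers, had log2 signals of 8.20 and 8.34 in shEzh2.781 lymphomas and 8.11 and 8.50 in shEzh2.556 lymphomas, against 8.42 and 8.52 in premalignant cells. The shEzh2.556 arrays were the farthest apart, and one of them lay between the premalignant values. The log2 difference of -0.18 missed the threshold (95% interval -0.45 to 0.08, adjusted p = 0.385 by limma).

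The log2 ratio of Tet1 to Tet2 differed by -2.70 between lymphomas and premalignant cells, and that of Tet1 to Tet3 by -2.29. Both values rest on the Tet1 signals in lymphomas, which may be limited by background. In both ratios all 4 lymphoma arrays lay below both premalignant arrays, which gives an exact two-sided permutation p of 0.133, the smallest that 4 against 2 arrays allow. The value was also 0.133 after adjustment over the 3 gene pairs compared, the third being Dnmt3a and Dnmt3b.

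Dnmt3a, a de novo methyltransferase often mutated in human blood cancers, had log2 signals of 9.10 and 9.03 in shEzh2.781 lymphomas and 8.76 and 8.82 in shEzh2.556 lymphomas, against 9.62 and 9.65 in premalignant cells. The 3 groups did not overlap, with shEzh2.556 lymphomas lowest. The log2 difference in lymphomas was -0.70 (SE 0.09, 95% interval -0.91 to -0.50, adjusted p = 0.000308 by limma), 1.63-fold lower. It was -0.57 in shEzh2.781 lymphomas (adjusted p = 0.00538) and -0.84 in shEzh2.556 lymphomas (adjusted p = 0.000231). The nearest profiles were Efcab11 (root mean square difference 0.024), Smim24 (0.026) and Smarca4 (0.027), the last an ATPase of chromatin remodelling complexes, whose log2 difference was -0.75 (adjusted p = 0.000243).

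Dnmt3b, the other de novo enzyme, had log2 signals of 8.32 and 8.27 in shEzh2.781 lymphomas and 8.07 and 8.19 in shEzh2.556 lymphomas, against 8.13 and 8.14 in premalignant cells. The premalignant values fell inside the range of the lymphomas. The log2 difference was 0.08 (95% interval -0.13 to 0.29, adjusted p = 0.656 by limma), which leaves a rise of up to 0.29 or a fall of 0.13 possible. The change of Dnmt3a relative to Dnmt3b was -0.79 log2, with no overlap between lymphoma and premalignant arrays and the same exact p of 0.133.

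Dnmt1, the maintenance methyltransferase, had log2 signals of 11.85 and 11.87 in shEzh2.781 lymphomas and 11.59 and 11.78 in shEzh2.556 lymphomas, against 12.06 and 12.05 in premalignant cells. All lymphoma arrays were lower, by small amounts. The log2 difference in lymphomas was -0.28 (SE 0.10, 95% interval -0.50 to -0.07), with a limma adjusted p of 0.0809. It passed the threshold when only genes above the median signal were tested (adjusted p = 0.0472) or when the variance was allowed to follow the signal (adjusted p = 0.0132). By hairpin it was -0.20 in shEzh2.781 lymphomas (adjusted p = 0.367) and -0.37 in shEzh2.556 lymphomas (adjusted p = 0.0434). The call in shEzh2.556 lymphomas was lost without shEzh2.781 replicate 1 or 2 (adjusted p = 0.0592 for each), shEzh2.556 replicate 1 (0.255) or premalignant replicate 1 (0.146) or 2 (0.0912).

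Uhrf1, which reads half-methylated DNA and recruits DNMT1, had log2 signals of 11.48 and 11.16 in shEzh2.781 lymphomas and 11.03 and 10.98 in shEzh2.556 lymphomas, against 11.58 and 11.70 in premalignant cells. One shEzh2.781 array came close to the lower premalignant array, and the other 3 lymphoma arrays lay well below. The log2 difference was -0.48 (SE 0.11, 95% interval -0.72 to -0.23, adjusted p = 0.0123 by limma), 1.39-fold lower. By hairpin it was -0.32 in shEzh2.781 lymphomas (adjusted p = 0.160) and -0.63 in shEzh2.556 lymphomas (adjusted p = 0.00517). The value with shEzh2.781 was -0.48 without shEzh2.781 replicate 1 and -0.16 without shEzh2.781 replicate 2. The call for all lymphomas was lost without premalignant replicate 2 (adjusted p = 0.115) and when the lymphomas were treated as 1 group (adjusted p = 0.121). The nearest profiles were Pdcl (root mean square difference 0.048), Cxxc5 and Cerk (both 0.056).

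The start regions of Dnmt1, Uhrf1 and Dnmt3a are shown because a search for the letters bound by E2F factors (TTTGGCGC, TTTCGCGC and TTTCCCGC) and by MYC (the E-box CACGTG), on both strands, found a match in 1 annotated window of each (RefSeq, GRCm38.p6). Dnmt1 lies at chr9:20952574-20952873 on the minus strand, Uhrf1 at chr17:56304063-56304362 on the plus strand and Dnmt3a at chr12:3891494-3891793 on the plus strand. Capitals mark the matches, none of which overlaps another.
Dnmt1: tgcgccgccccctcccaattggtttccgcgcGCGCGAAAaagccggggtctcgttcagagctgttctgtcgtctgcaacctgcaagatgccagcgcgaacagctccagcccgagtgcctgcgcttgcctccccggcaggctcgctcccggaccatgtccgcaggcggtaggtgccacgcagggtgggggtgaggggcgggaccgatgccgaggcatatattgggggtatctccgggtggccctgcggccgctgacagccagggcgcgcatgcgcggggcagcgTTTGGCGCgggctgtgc
Uhrf1: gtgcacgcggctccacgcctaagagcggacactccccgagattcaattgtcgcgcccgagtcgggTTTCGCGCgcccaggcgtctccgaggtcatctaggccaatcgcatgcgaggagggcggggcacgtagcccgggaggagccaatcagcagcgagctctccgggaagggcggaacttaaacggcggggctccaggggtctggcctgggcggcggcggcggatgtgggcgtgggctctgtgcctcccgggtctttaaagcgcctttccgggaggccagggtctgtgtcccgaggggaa
Dnmt3a: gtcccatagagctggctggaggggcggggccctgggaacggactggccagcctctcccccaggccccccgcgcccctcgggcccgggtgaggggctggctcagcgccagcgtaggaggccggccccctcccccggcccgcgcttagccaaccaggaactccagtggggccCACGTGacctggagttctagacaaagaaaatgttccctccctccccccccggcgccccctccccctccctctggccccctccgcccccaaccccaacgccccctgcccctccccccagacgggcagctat
Counted from 1 at the 5′ end, the Dnmt1 window holds E2F-like letters at positions 32 and 284, the Uhrf1 window at position 66, and the Dnmt3a window an E-box at position 171. E2F-like letters occur in 1.84% and the E-box in 7.15% of the 32851 windows. The 8 genes have 13 windows in all, so a match in 1 of several starts is a description of letters only. The Tet1, Tet2, Tet3 and Dnmt3b windows hold no match, and the Tdg window holds 1 E-box.

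By hairpin, 3 of the 7 genes were lower in shEzh2.781 lymphomas (Tet1, Tet3 and Dnmt3a). There 6.24% of all genes were called lower (5.36% with quantile normalization and 4.22% with centred arrays). The median log2 difference of the 7 was -0.32 against -0.03 over all genes. In shEzh2.556 lymphomas 5 of the 7 were lower, those 3 with Dnmt1 and Uhrf1. Of all genes 11.4% were called lower there (9.34% with quantile normalization and 11% with centred arrays). The median of the 7 was -0.63 against 0.07. A call with one hairpin and not with the other is no test of a difference between them. That test, shEzh2.781 minus shEzh2.556, called 0 of the 7 by limma, against 10% of all genes in either direction, of which 54.8% were higher with shEzh2.781 (83.2% with centred arrays), while at an unadjusted p under 0.05 it found 2, Dnmt3a (0.0266) and Uhrf1 (0.0313).

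The difference between hairpins was 0.31 log2 for Uhrf1 (95% interval 0.03 to 0.60, limma adjusted p = 0.125), 0.28 for Dnmt3a (0.04 to 0.51, adjusted p = 0.115) and 0.25 for Tet1 (-0.01 to 0.51, adjusted p = 0.179). Their order was not stable: that of Uhrf1 was 0.16 without shEzh2.781 replicate 1 and 0.47 without shEzh2.781 replicate 2, and that of Tet1 was 0.12 without shEzh2.556 replicate 2 and 0.38 without shEzh2.556 replicate 1 or after quantile normalization. Dnmt1 was at 0.17 (-0.08 to 0.42), Dnmt3b at 0.16 (-0.08 to 0.41), Tet3 at 0.07 (-0.16 to 0.31) and Tet2 at -0.03 (-0.34 to 0.27). The signal was higher in shEzh2.781 lymphomas for 6 of the 7, with a median of 0.17 against -0.07 over all genes. No share of all genes is given for that count. Medians of related lists were also positive for S phase genes (0.20), maintenance partners (0.18) and TET regulators (0.10). The same held for base excision partners, methyl-CpG readers, recruiters (each 0.08) and the methionine cycle (0.04). Those of imprinted (-0.19) and germline genes (-0.11) were negative. With each array centred on its median, Dnmt3a (0.39, adjusted p = 0.0347) and Uhrf1 (0.43, adjusted p = 0.0451) were called higher in shEzh2.781 than in shEzh2.556 lymphomas.

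**Figure D4:**
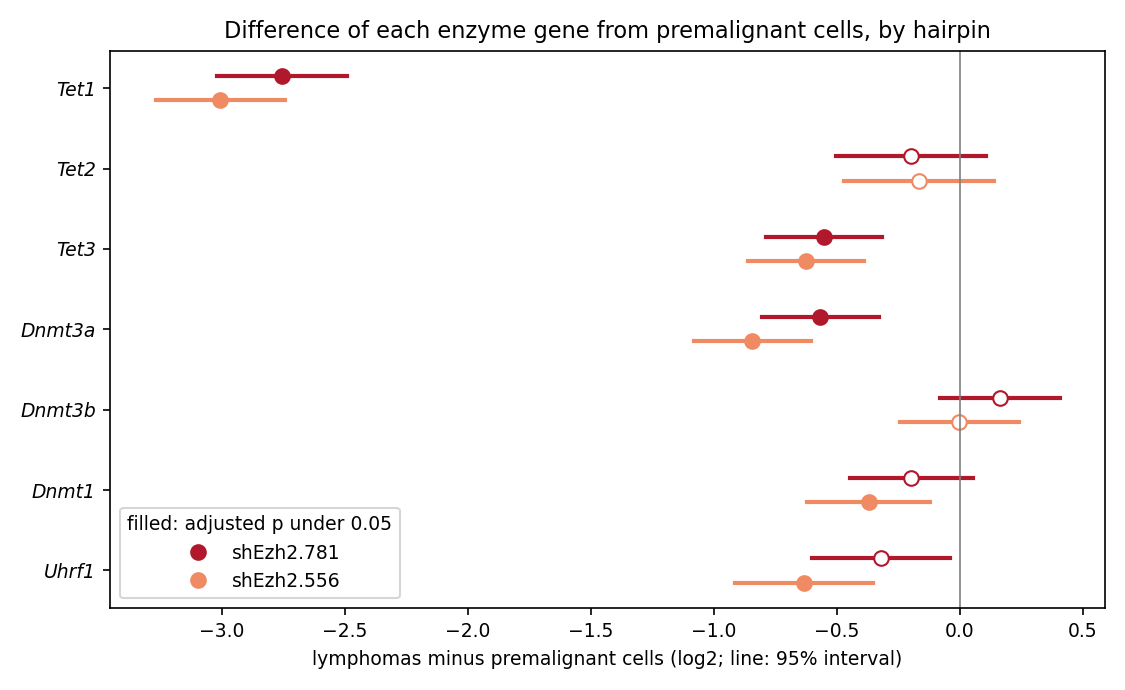
Log2 difference from premalignant cells (x axis) of each measured gene (y axis) for shEzh2.781 and shEzh2.556 lymphomas, with 95% intervals as lines and filled points at an adjusted p under 0.05. Tet1 stands at -2.76 and -3.01, far left of the others, and the intervals of the hairpins overlap for every gene.

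Other genes of the pathway were taken from lists of related genes, counted without the 8 genes above and read against the same 9.61% of genes lower and 5.6% higher in lymphomas. Those shares cover genes of every signal level, and calls were more frequent among genes above the median signal, as given above. Of the 17 measured partners of base excision and active demethylation, 7 were lower and 1 was higher in lymphomas, with a median log2 difference of -0.14. With 1 array left out 5 to 7 were lower, and with the lymphomas treated as 1 group 4 were. The lower ones included the DNA glycosylases Neil1 (-1.14, limma adjusted p = 0.000121), Neil3 (-0.72, adjusted p = 0.000858) and Mbd4 (-0.63, adjusted p = 0.00173), and Hmces, a sensor of abasic sites in single-stranded DNA (-0.88, adjusted p = 0.000211). Mbd4 was also the only one of 8 measured methyl-CpG readers that was called.

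Gadd45a, a stress-induced gene whose product is linked to active demethylation, was the 1 partner called higher, and its difference had opposite signs in the lymphomas of the 2 hairpins. Whether the 2 arrays per hairpin are different tumours is not stated. A difference between tumours and one between hairpins therefore cannot be told apart. Its log2 signal was 7.60 and 7.59 in shEzh2.781 lymphomas and 11.11 and 10.95 in shEzh2.556 lymphomas, against 8.19 and 8.11 in premalignant cells. It was lower with shEzh2.781 (-0.56, limma adjusted p = 0.00764) and higher with shEzh2.556 (2.88, adjusted p = 2.54e-08), and the hairpins differed by -3.43 (adjusted p = 9.85e-09). Its relative Gadd45b had log2 signals of 10.57 and 10.30 in shEzh2.781 lymphomas and 9.22 and 9.15 in shEzh2.556 lymphomas, against 10.39 and 10.41 in premalignant cells. It was lower with shEzh2.556 (-1.21, limma adjusted p = 3.60e-05), its difference with shEzh2.781 was 0.04 (adjusted p = 0.912), and the hairpins differed by 1.25 (adjusted p = 0.000118). These between-hairpin calls held with each array left out. Between the hairpins all 10 neutrophil markers were also higher with shEzh2.781 and all 5 measured erythroid markers were lower, 2 of the 5 without shEzh2.556 replicate 1, and their part in these differences was not tested.

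Of 21 measured genes of alpha-ketoglutarate supply and TET regulation, 3 were lower and 1 was higher in lymphomas, and 1 was lower without premalignant replicate 2 and none higher without premalignant replicate 1. Idh1, the cytosolic dehydrogenase that makes the alpha-ketoglutarate TET enzymes consume, was lower in shEzh2.556 lymphomas (-1.10, limma adjusted p = 7.42e-05), had a difference of -0.25 in shEzh2.781 lymphomas (adjusted p = 0.263), and differed between hairpins by 0.86 (adjusted p = 0.00143). Of 15 measured recruiters and other DNMT-family genes, 2 were lower, of which Kdm1b, a histone demethylase needed for methylation of imprinted genes in mouse oocytes, was called with each array left out (-0.92, adjusted p = 5.42e-05). The other, Kdm1a, was not called without shEzh2.781 replicate 2, shEzh2.556 replicate 1 or either premalignant array (adjusted p of 0.0821, 0.0826, 0.145 and 0.104), which left 1. Of 13 measured genes of the methionine and methyl donor cycle, 2 were higher, Mtap and the folate carrier Slc19a1 (0.66, adjusted p = 0.000598), and 1 was higher without shEzh2.781 replicate 1, shEzh2.556 replicate 2 or either premalignant array.

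Among partners of maintenance methylation, 1 of 12 was lower in lymphomas, the retinoblastoma gene Rb1 (-0.59, limma adjusted p = 0.00519), and none without premalignant replicate 1 or 2. Cdca7l was the 1 called higher, and it was not called once any 1 array was left out. In shEzh2.556 lymphomas 4 of 12 were lower, against 11.4% of all genes, among them Hells, a remodeller needed for normal methylation (-0.46, adjusted p = 0.0350), and Lig1, the ligase of DNA replication (-0.38, adjusted p = 0.0322). In shEzh2.781 lymphomas 1 of 12 was lower, against 6.24% of all genes. The direct test between hairpins called 0 of the 12 by limma, with 4 higher in shEzh2.781 lymphomas at an unadjusted p under 0.05. With centred arrays it called 4 of the 12 higher, against 11.2% of all genes. The 4 lower with shEzh2.556 became 2 without shEzh2.556 replicate 2 or premalignant replicate 2, and 0 without shEzh2.556 replicate 1 or premalignant replicate 1. The 1 with shEzh2.781 was lost without shEzh2.781 replicate 1 or either premalignant array.

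Of 24 measured germline genes that promoter methylation is known to silence in body cells, 0 were called higher in lymphomas by limma and 1 was called lower, with 3 higher and 1 lower at an unadjusted p under 0.05 and a median log2 difference of 0.02. The lower one was Stag3, a meiotic cohesin subunit, which had log2 differences of -1.96 in shEzh2.781 lymphomas (adjusted p = 7.66e-07) and -1.47 in shEzh2.556 lymphomas (adjusted p = 4.15e-06). Apart from Stag3 in premalignant cells, the group means of all these germline genes lay under the array medians. Whether such signals exceed background is not known, so the counts do not show whether these genes were expressed. The sizes of the Stag3 differences may likewise be limited by background.

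**Figure D5:**
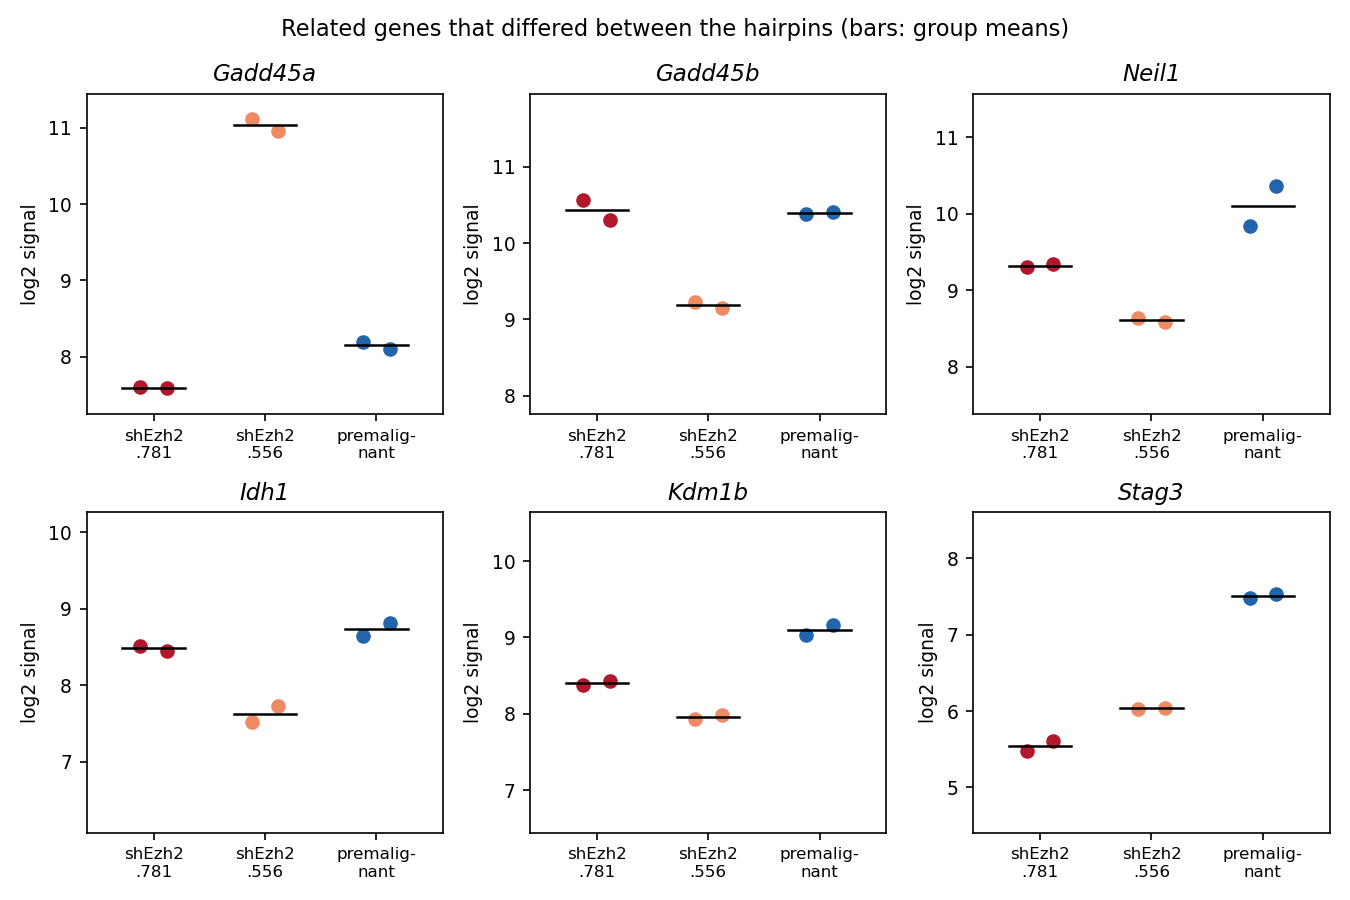
Log2 signal (y axis) on each array of 6 related genes that differed between the hairpins, with groups along the x axis, points for arrays and bars for group means, and the same range on every y axis. Gadd45a lies near 11 in shEzh2.556 lymphomas and near 8 in premalignant cells, and Gadd45b and Idh1 are lowest in shEzh2.556 lymphomas.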

How the data were processed

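Total RNA of 6 samples was measured on 1-colour arrays, of which 4 came from lymphomas. The authors deposited 1 log2 value per probe set, normalized and summarized by methods not given in the sources used here. That the scale is log2 is read from the values alone. They ran from 2.30 to 14.22, with array medians of 6.75 to 6.91, so offsets of that size remain between arrays. Of 35512 probe sets, 21789 had a single symbol, 1621 had several and 12102 had none, and the last 2 kinds were not used for genes.

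One limma model (version 3.58.1, R 4.3.3) covered the 3 groups (lmFit and eBayes, no intercept, no covariates, 8.51 prior and 3 residual degrees of freedom), with Benjamini-Hochberg adjustment over all 19938 genes and a threshold of 0.05. Its 4 contrasts set the mean of both hairpin groups, shEzh2.781 alone and shEzh2.556 alone against premalignant cells, and shEzh2.781 against shEzh2.556. The fit was also run on simulated arrays, but no outcome of that run is given here. The number of arrays limits the precision. Genes named were the listed enzymes, Ezh2, the 3 nearest profiles of each gene called in lymphomas, up to 4 genes with the smallest p per list, and any member of a list being described. Related genes were matched by exact symbol. The genes, lists and tests were chosen with earlier results of these data known. Alternatives were quantile normalization, centred arrays, genes above the median signal, the mean of all probe sets, a variance trend, lymphomas as 1 group, a replicate block and leaving out each array. List counts and other named genes under these settings were added after the data were seen. Figures and sequences used Python 3.11.15, pandas 2.3.3, numpy 2.4.6, scipy 1.17.1 and matplotlib 3.10.9.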

Additional observations from a re-analysis of the deposited data

Results flagged for a closer look

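The genes below, from the lists of related genes, differed between the hairpins by the direct limma test of shEzh2.781 minus shEzh2.556 lymphomas. None of the 7 measured enzyme genes did. Gadd45a (-3.43, adjusted p = 9.85e-09), Gadd45b (1.25, adjusted p = 0.000118), Idh1 (0.86, adjusted p = 0.00143) and the replication factor gene Rfc3 (0.96, adjusted p = 0.00249) kept the call with each array left out. The glycosylase gene Neil1 (0.72, adjusted p = 0.0156) was not called without shEzh2.556 replicate 1 or 2, and Stag3 (-0.49, adjusted p = 0.0189) and Lin28b (0.67, adjusted p = 0.0115) were not called without shEzh2.781 replicate 1 or shEzh2.556 replicate 1 or 2. Kdm1b (0.44, adjusted p = 0.0312), the mitochondrial dehydrogenase gene Idh2 (0.45, adjusted p = 0.0281) and the methyl-CpG reader gene Zbtb33 (0.44, adjusted p = 0.0406) were not called once any 1 of the 4 lymphoma arrays was left out. The same held for Ung (0.45, adjusted p = 0.0390), Morc3 (0.49, adjusted p = 0.0346), Grb10 (-0.52, adjusted p = 0.0263), Gins2 (0.45, adjusted p = 0.0351), Prim1 (0.45, adjusted p = 0.0369) and Gins1 (0.42, adjusted p = 0.0340). Kdm2b (0.50, adjusted p = 0.0270) and Ccne2 (0.59, adjusted p = 0.0224) were not called without shEzh2.781 replicate 1 or shEzh2.556 replicate 1 or 2. Rfc3 and the genes from Ung onward were added to the named genes after their values were seen. Means of Stag3, Lin28b and Grb10 with either hairpin lay under the array medians, so the sizes of their differences may be limited by background.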

How the results depend on the processing

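The falls of Tet1, Tet3 and Dnmt3a in lymphomas and with each hairpin kept their direction and their call under every alternative run. Of the recomputed differences of the 7 genes, 322 kept direction and call, 8 lost the call, 4 gained it and 9 turned sign. The turned signs were all of uncalled values: Dnmt3b with shEzh2.556 was 0.0973 after quantile normalization, 0.00668 with centred arrays and -0.064 to 0.0624 with 1 array left out, turning without shEzh2.556 replicate 1 (0.0624) or premalignant replicate 2 (0.0050). Tet2 with shEzh2.556 was -0.363 to 0.0299 with 1 array left out, turning without shEzh2.556 replicate 1. Between hairpins, Tet3 was -0.00085 after quantile normalization, and Tet2 was 0.0820 with centred arrays and -0.228 to 0.165 with 1 array left out, turning without shEzh2.781 replicate 1 (0.0378) or shEzh2.556 replicate 2 (0.165). Genes called in lymphomas numbered 3033, and 1091 with lymphomas as 1 group. Leaving out 1 array gave 1721 to 2833 in lymphomas, 1103 to 2048 (2161 with all arrays) with shEzh2.781, 1949 to 3669 (3635) with shEzh2.556 and 718 to 2085 (2000) between hairpins, with 3 to 4, 3, 4 to 5 and 0 of the 7 genes called. Centred arrays gave 2 of the 7 called between hairpins, both higher with shEzh2.781, as were 11.2% of all genes. The cause of these changes was not tested, beyond the smaller number of arrays. The labels link same-numbered arrays by number alone, and whether they shared a batch is not known. Differences between replicates correlated across genes at 0.064 (shEzh2.781 and shEzh2.556), -0.091 (shEzh2.781 and premalignant) and -0.12 (shEzh2.556 and premalignant). With 1 such difference per group, these values cannot settle it. A replicate block gave 2889, 2078, 3371 and 1783 genes called, and 4, 3, 4 and 0 of the 7, where Dnmt1 with shEzh2.556 was lost (adjusted p = 0.0626).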

Other observations

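Imprinted genes, whose monoallelic expression rests on DNA methylation, were not described above. Of 22 measured, 4 were lower and 1 was higher in lymphomas by limma, with a median log2 difference of 0.08, against 9.61% of all genes lower and 5.6% higher. The lower ones were Sgce (-0.63, adjusted p = 0.00154), Peg10 (-0.53, adjusted p = 0.00868), Impact (-0.46, adjusted p = 0.0194) and Igf2r (-0.37, adjusted p = 0.0493), and the higher one was the cell cycle inhibitor gene Cdkn1c (0.36, adjusted p = 0.0487). Fewer were lower without shEzh2.556 replicate 1 (2) and premalignant replicate 1 (1), and of the 6 arrays only shEzh2.781 replicate 1 could be left out with Cdkn1c still called.

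Dnmt1 and Uhrf1 are transcribed most in S phase, so genes of DNA replication are given beside them. Of 32 measured S phase genes, 2 were lower in lymphomas, the helicase subunit gene Mcm7 (-0.38, limma adjusted p = 0.0199) and the polymerase gene Pold1 (-0.37, adjusted p = 0.0236), with a median log2 difference of -0.12. That is 6.25% of the list, against 9.61% of all genes. None was called without shEzh2.781 replicate 2, shEzh2.556 replicate 1 or premalignant replicate 1 or 2, and 3 without shEzh2.556 replicate 2. Against premalignant cells, 5 of the 32 were lower with shEzh2.556 (15.6%, against 11.4% of all genes), with a median of -0.23. With shEzh2.781 1 of the 32 was lower (3.12%, against 6.24% of all genes), with a median of 0.03. Between hairpins 5 of the 32 were higher with shEzh2.781, with a median of 0.20, against 5.5% of all genes. The count was 1 after quantile normalization, where 4.1% of all genes were higher, and 14 with centred arrays, where 11.2% were. It was 1 or 2 without any 1 of the lymphoma arrays. The part of proliferation in the values of Dnmt1 and Uhrf1 was not tested.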
